A study of Arabidopsis thaliana with 36 samples.

Results

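A group of 79 transcripts whose level in Arabidopsis shoots was lowest 6 h into the sampling, in the afternoon of a long day, was examined. They are 79 of the 22746 probe sets on the array that are not controls. A probe set is the group of short probes that reads 1 transcript or a few similar ones. The members were selected on the shoot signals themselves. Of the 9 shoot group means, the 6 h one had to be the lowest. The mean of the 0.25, 0.5, 1 and 24 h group means, called the morning mean here, had to be at least 150. The morning mean plus 10 also had to be at least 3 times the 6 h mean plus 10. Named STZ, CML, WRKY, UGT and CYP genes and IAA29 were to be left out, and this removed 0 probe sets. The shoot values of the members are therefore a description with no test, and the members were tested only in roots, which the selection did not use. The probe table names 1 gene for 31 of the members, and all 31 are described below. The other 48 are not named in it and are given by their probe set number, so the exclusion by name could be checked only for the 31.

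All plants were Arabidopsis thaliana Col-0 of stock N1092, grown on Murashige and Skoog medium in a growth room at 24 °C, 50% humidity and 16 h days. They were the control plants of a stress series: their boxes were carried out of the climate chamber and opened, the raft was lifted as for the treated plants, and the boxes were put back, with no stress given. The first samples were taken on day 16, when the light had been on for 3 h. Shoots and roots were collected at 0, 0.25, 0.5, 1, 3, 4, 6, 12 and 24 h, which gave 18 groups of 2 arrays each, 36 arrays in all. At 6 h the plants had thus had 9 h of light and at 12 h 15 h of light, 1 h short of the whole light period, and at 24 h the clock time was that of 0 h. The labels do not say whether the 2 arrays of a group came from separate plants, so p-values measure the spread between these arrays, which may be technical. That each group has 2 arrays limits the precision of every value.

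The levels of many plant transcripts follow the day. A circadian clock built from transcription factors that repress one another, together with light and the plant's sugar status, sets the hour at which a gene is most and least expressed. In leaves, genes for light signalling, carbon and nitrogen metabolism and redox protection are among those known to have such daily rhythms, while roots follow a related rhythm with a different set of genes. In whole organs, fewer cells of a type and less RNA per cell cannot be told apart.

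The values are array signals, scaled by the authors so that the trimmed mean of each array lay between 100.007 and 100.01. A probe set counted as measurable in an organ if its signal reached 40 on 2 or more of the arrays of that organ. The arrays went with their labels: the signals of 5 photosynthesis genes summed to between 18717 and 25320 in shoots and between 136 and 282 in roots. Those of 4 root markers summed to between 466 and 2062 in shoots and between 4511 and 5774 in roots. Of the shoot arrays, replicate 1 at 0 h stood apart, with the root marker sum at 42.5% of the root level of that time. So did both arrays of 4 h, at 31.1% and 26.4%, against 9.54% to 19.6% on the other shoot arrays. The 0 h and 4 h means do not enter the morning mean. The part of the root markers in the 0 h and 4 h levels of the members was not tested. On the 6 h shoot arrays the root marker sum was 964 and 982, against 466 to 916 on the 8 morning arrays, and most of it was PYK10, a beta-glucosidase that was at 915 and 935 on the 6 h arrays. The root peroxidase gene AT4G30170, at 1245 to 1661 in roots, was at 7.08 and 10.5 on the 6 h shoot arrays. Over all shoot arrays PYK10 reached 1991, while AT4G30170 reached 35 and the root markers EXPA7 and EXPA18 reached 18.1 and 26.2. Most of the high sums at 0 h and 4 h was thus PYK10 as well. The control signals for RNA quality also differed: the 25S ribosomal RNA signal was 2408 and 2664 at 6 h, against 815 to 2385 on the morning shoot arrays, and the ratio of the 3′ to the 5′ GAPDH probe sets was 1.59 and 1.66 against 1.43 to 1.64. The part of these in the shoot values was not tested.

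In shoots the selection set the 6 h mean below the other 8 group means and set a minimum for its distance from the morning mean. The morning mean lay between 159.9 and 3878, with a median of 304, and the 6 h mean between 7.69 and 1229, with a median of 68.2. The fold, the morning mean plus 10 over the 6 h mean plus 10, had a median of 4.09 and reached 13.3. As a share of each member's morning mean, the median at 0 h was 104%, and at 0.25, 0.5 and 1 h it was 86.1%, 91.6% and 86.8%. At 3 and 4 h it was 50.1% and 43.4%, and it then went to 21.2% at 6 h, 44.3% at 12 h and 133% the next morning. The selection favours a high share at 24 h, which is part of the morning mean. The single members spread widely around these medians, over 14.7% to 92.3% at 3 h, 16.3% to 162% an hour later and 5.48% to 155% near the end of the light period.

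**Figure D1:**
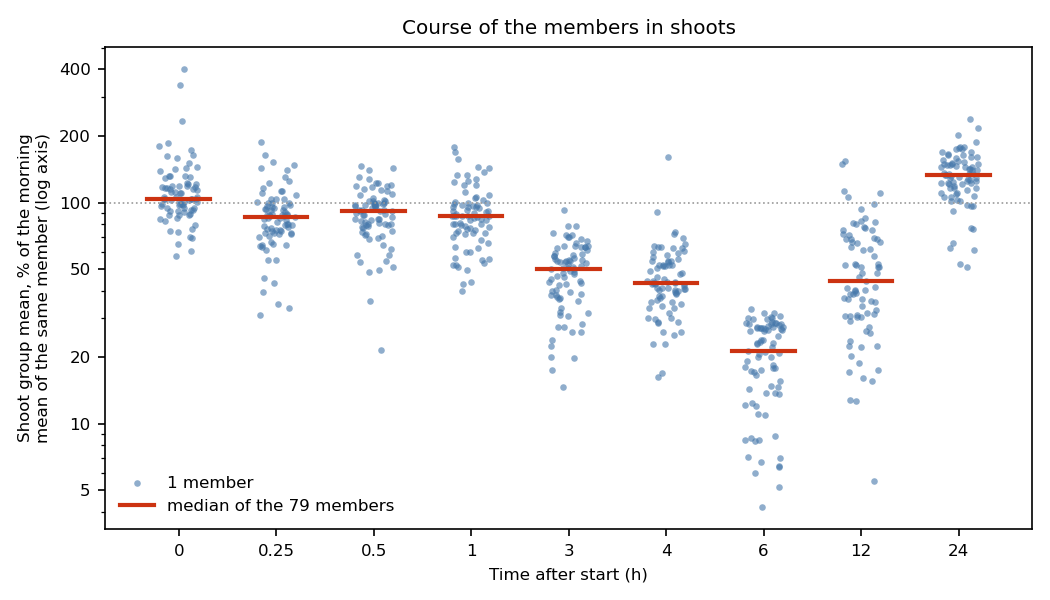
Shoot group mean of each of the 79 members at the 9 times, as a percentage of that member's morning mean, on a log axis. Points are members and red bars are medians, which are lowest at 6 h, at 21.2%, and highest the next morning, at 133%. The selection set the low at 6 h and favours a high at 24 h, which is part of the morning mean.

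The highest of the 9 shoot means was at 24 h for 50 members and at 0 h for 15, and it was at 0.25, 0.5 or 1 h for 6, 4 and 4. No member was highest at 3, 4 or 12 h. The 24 h mean was above the 0 h mean of the previous day, at the same hour, for 55 of the 79, with a median ratio of 1.24. The 24 h mean is part of the morning mean and the 0 h mean is not, so the selection favours members high at 24 h. The share over all probe sets was not counted for these times. The 3 h mean plus 10 was already at or under 50% of the morning mean plus 10 for 35 members. By the same measure the 4 h mean was the first to be so for 18, and for 26 only the 6 h mean was. Both 6 h arrays lay below all 8 morning arrays for 77 members and below all 16 other shoot arrays for 71. The selection favours such a separation, and the share over all probe sets was not counted, so these counts only describe the members. For 24 members the 6 h mean was under 40, close to the background of the arrays, so their folds depend on the constant of 10.

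**Figure D2:**
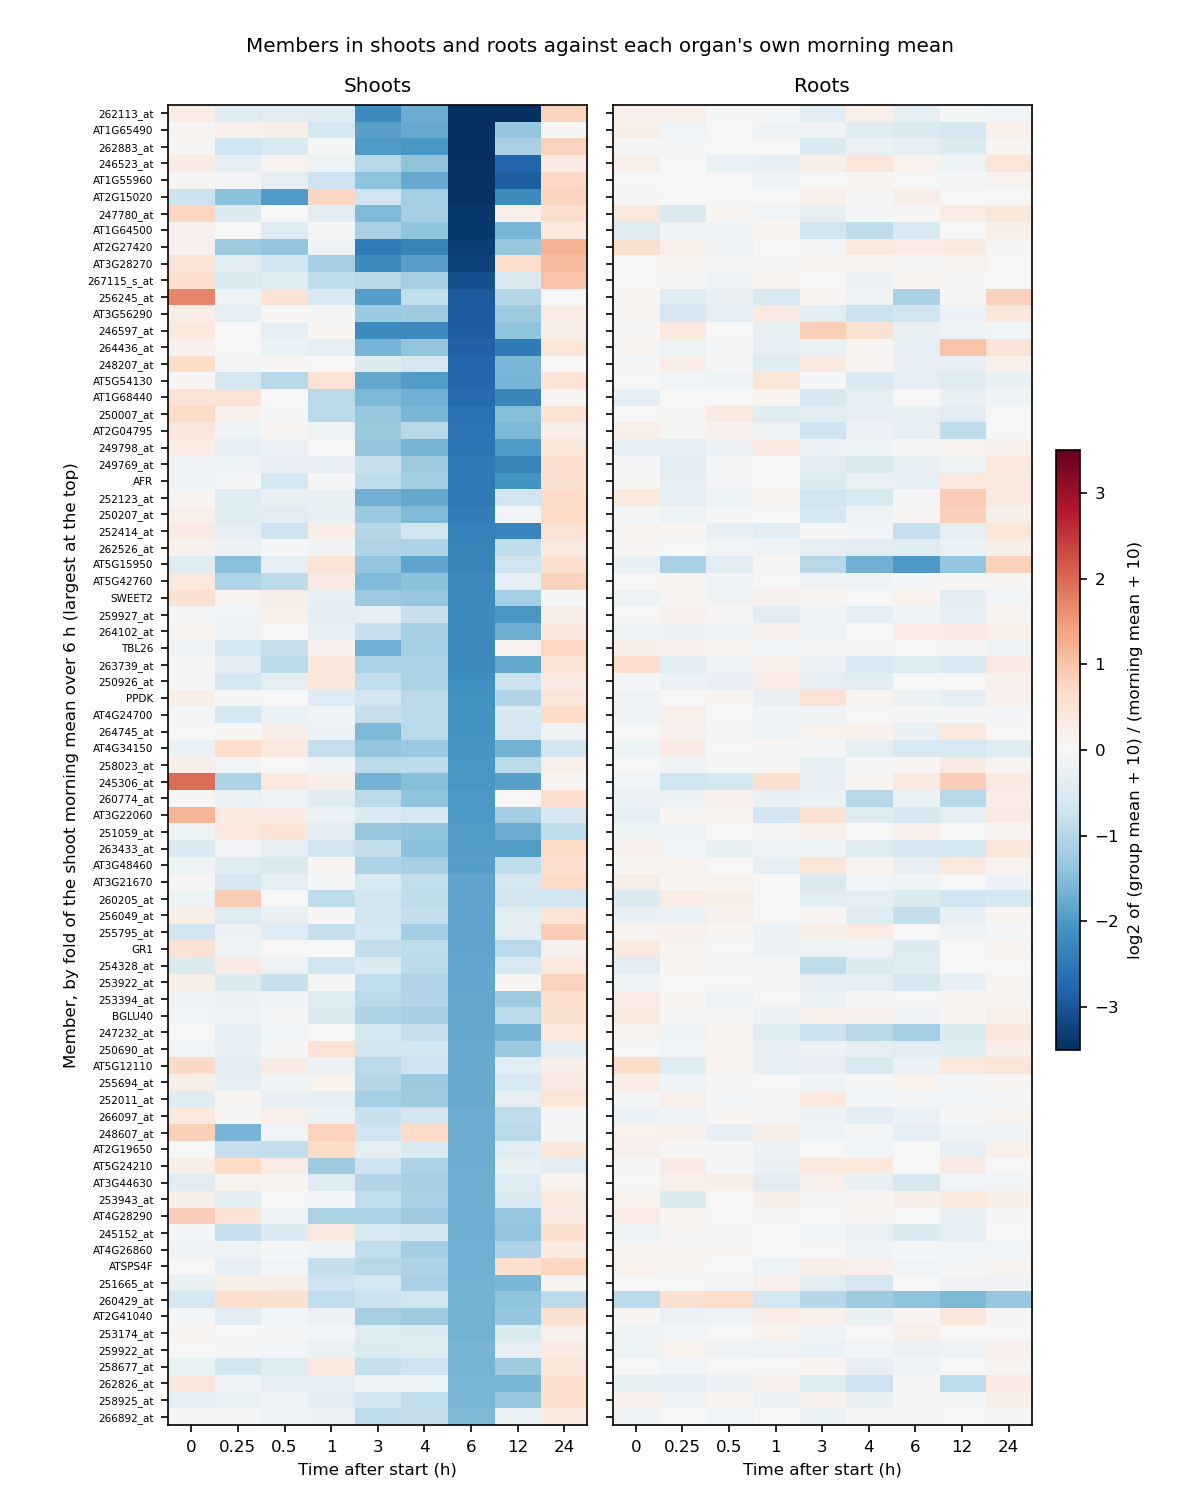
Group means of the 79 members in shoots (left) and roots (right), as log2 of the mean plus 10 over the morning mean plus 10 of the same organ, with the largest shoot fold at the top. The 6 h column of the shoots is the darkest blue by selection. In roots 56 members were lower at 6 h by sign and 14 by the test given below, among them AT5G15950. Probe sets 264436_at, 252123_at, 250207_at and 245306_at are higher in roots at 12 h.

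The largest fold among the named members was that of AT1G65490, a gene of unknown function. Its shoot signals were 105 and 93.8 at 6 h and 865 to 1694 (median 1563) on the morning arrays, a fold of 13.1. Its level was 381 and 359.8 at 3 h and 422 and 398 at 4 h, a plateau between the morning and the 6 h level. At 12 h it was 501 and 598, 38.7% of the morning mean.

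AT1G55960, of the START/polyketide cyclase family of lipid-binding proteins, had 120.3 and 105 at 6 h and 762 to 2398 (median 1119) in the morning, a fold of 11. At 12 h it was at 172 and 169.7. Its level at 24 h was 2398 and 2042, above both 0 h arrays, which were at 1162 and 1583. The pairs of arrays at 4, 6, 12 and 24 h did not overlap.

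AT2G15020, of unknown function, was at 9.92 and 5.46 at 6 h and 32 to 342 (median 172) on the morning arrays, so its fold of 10.9 is set by a signal near 0. Its morning was not even: 32 and 46.8 at 0.5 h lay well below 279.6 and 342 at 1 h. AT1G64500, of the glutaredoxin family of small thiol enzymes, was at 23.3 and 18 at 6 h and 215 to 411 (median 306) in the morning, a fold of 10.4, with a smaller dip to 215 and 229 at 0.5 h. AT2G27420, of the cysteine proteinase family, was at 10.5 and 15.5 at 6 h and 68.1 to 544 (median 135) in the morning, where the 2 highest arrays were those of 24 h, at 544 and 487.

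Among the unnamed members, probe set 262113_at had the largest fold of all 79, 13.3, with 14.8 and 25.9 at 6 h and 251 to 753 (median 308) in the morning. It was also the lowest member at 12 h relative to its morning, at 20.1 and 22.9, which lies between the 2 arrays of 6 h. In all, 8 members had a fold of at least 10 and 36 a fold under 4. At the high end of the signal range, 253174_at was at 1268 and 1191 at 6 h and 3225 to 4501 (median 3864) in the morning, a fold of 3.14.

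The other named members are given by their known roles, an order that was not tested and that claims no theme among them. SWEET2, a sugar transporter of the vacuole membrane, was at 51.2 and 52.6 at 6 h, against 197 to 373 (median 277) on the morning arrays. Its 88.7 and 134 at 3 h and 112 and 100.5 at 4 h were already below every morning array, and at 12 h it stood at 115 and 119.5. ATSPS4F, a sucrose-phosphate synthase, which makes the precursor of sucrose, was at 211 and 183 at 6 h and 321 to 1236 (median 578) in the morning. It differed from SWEET2 at 12 h, when its signals of 939 and 999.6 were above the 6 morning arrays of 0.25 to 1 h and overlapped those of 24 h, at 1236 and 978.

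PPDK, pyruvate orthophosphate dikinase, which turns pyruvate into phosphoenolpyruvate, was at 93.3 and 85.8 at 6 h and 279 to 586 (median 421) in the morning. Its 3 h arrays disagreed, at 192 and 337, and its 4 h and 12 h levels, 204 and 225 and 204 and 203, were alike. AT3G21670, a member of the NPF family of nitrate and peptide transporters, was one of 7 members with a morning mean of at least 1000. It was at 324 and 323 at 6 h and 792 to 2024 (median 1041) in the morning, and its 2024 and 1771 at 24 h were the highest of its shoot arrays. AT4G26860, of a family of pyridoxal phosphate enzymes, was at 202 and 176 at 6 h and 542 to 799 (median 591) in the morning, with 265 and 261 at 4 h and 280.3 and 301 at 12 h.

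GR1, glutathione reductase, which keeps the antioxidant glutathione reduced, was at 138 and 139 at 6 h and 438 to 580.1 (median 526) in the morning, a fold of 3.56. Its highest shoot arrays were those of 0 h, at 822 and 665. AT5G15950, an adenosylmethionine decarboxylase, an enzyme of polyamine synthesis, was at 79.1 and 78.1 at 6 h and 144 to 656 (median 487) in the morning, a fold of 5.04. Its morning arrays spread widely: 144 and 159.6 at 0.25 h were far below 648 and 556 at 1 h, though still above both 6 h arrays. AT5G12110, a subunit of translation elongation factor 1B, was at 80.3 and 67 at 6 h and 186 to 352 (median 280.2) in the morning. AT2G41040 and AT5G42760, both of methyltransferase families, were at 62.6 and 62.3 and at 29.6 and 38.6 at 6 h, with morning means of 219 and 198.

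AFR, an F-box protein that acts in far-red light signalling through phytochrome A, was at 40.4 and 32.8 at 6 h and 155 to 378 (median 236) in the morning. At 12 h it was at 55.2 and 45.8, above both 6 h arrays, and its 378 and 353 at 24 h were above all other shoot arrays. AT3G44630, of the TIR-NBS-LRR class of disease resistance proteins, was at 117 and 96.3 at 6 h and 243 to 415 (median 405) in the morning, with 278 and 258 at 12 h. AT5G54130, a calcium-binding protein with a phosphatase-like domain, was at 23.2 and 28 at 6 h and 108 to 363 (median 232) in the morning.

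AT4G34150, a protein with a calcium-dependent lipid-binding (C2) domain, was at 112 and 110.2 at 6 h and 269 to 784 (median 473) in the morning. Its level was highest at 0.25 h, at 784 and 756, and on the next day at 24 h it was 314 and 308, 62% of the morning mean. AT3G28270, of the DUF677 (At14a-like) family, was at 37.7 and 33.2 at 6 h and 172 to 932 (median 286) in the morning. At 12 h it stood at 647 and 650.0, 155% of its morning mean, and at 24 h at 932 and 899, so both late pairs lay above all arrays of 0 to 6 h.

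TBL26, of the TBL family, whose members acetylate wall polymers, was at 28.5 and 33.2 at 6 h and 91.9 to 323 (median 163) in the morning, and at 12 h it was back at 234 and 164. BGLU40, of the beta-glucosidase family, was at 110.0 and 114 at 6 h and 287 to 609 (median 380.2) in the morning. AT3G48460, of the GDSL lipase family, was at 75.4 and 65.8 at 6 h and 203 to 456 (median 259) in the morning. Both were highest at 24 h and stood near 50% of the morning mean at 12 h, at 52.1% and 52.6%.

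AT5G24210, of the class 3 lipase family, was at 80.3 and 56.1 at 6 h, and its 1 h arrays of 126 and 71.5 overlapped these, so it is, with 248607_at, one of the 2 members whose 6 h arrays were not below all morning arrays. AT3G22060, a secreted protein with the DUF26 domain, was at 35.3 and 43.4 at 6 h and 111 to 287 (median 190.0) in the morning. Its 0 h arrays differed most, at 621 and 265, and the higher one is the array on which the root marker sum, most of it PYK10, stood apart. AT2G19650, of the C1 domain family, was at 56 and 44.2 at 6 h and 96 to 302 (median 179.7) in the morning.

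Of the remaining genes of unknown function, AT3G56290 was at 78.1 and 96.5 at 6 h and 541 to 876 (median 704) in the morning, a fold of 7.51. AT1G68440 was at 49.8 and 78.4, AT2G04795 at 39.3 and 40.4, AT4G24700 at 63.3 and 49.7 and AT4G28290 at 48.1 and 44.7 at 6 h. Their morning means were 471, 291, 273 and 174, in the same order, and for each the 6 h arrays lay below all 8 morning arrays.

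**Figure D3:**
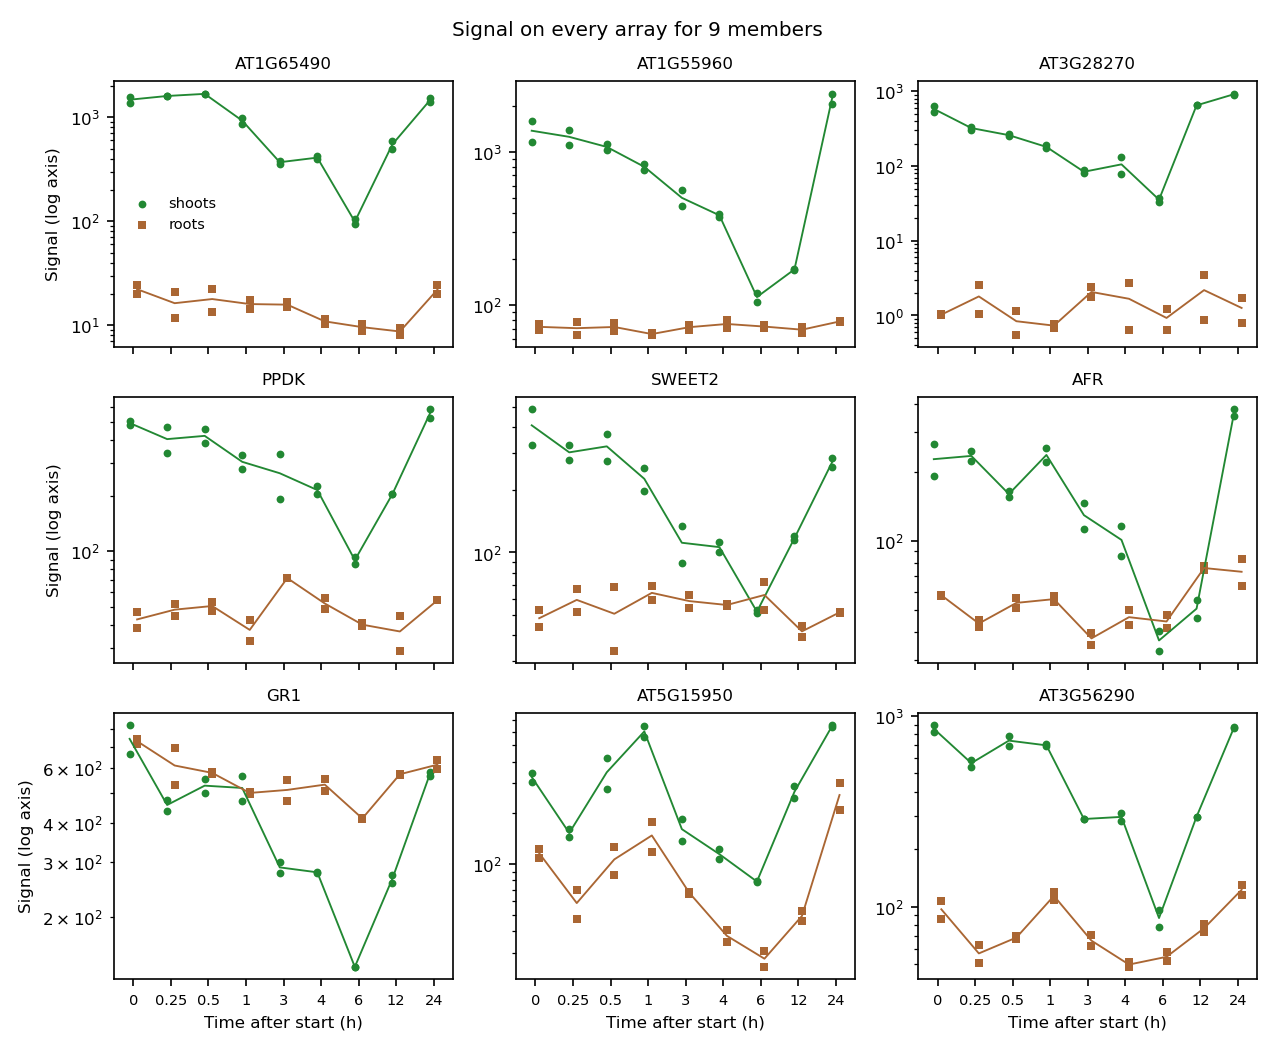
Signal on every array, on a log axis, for 9 members chosen after their values were seen, at the 9 times. Green circles are shoots, brown squares are roots, and lines join the means of 2 arrays. In shoots all are lowest at 6 h. In roots AT5G15950, AT3G56290, GR1 and, near the background, AT1G65490 were also lower at 6 h than in the morning, while AT1G55960 and SWEET2 show no such low.

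The members also differed at 12 h. The 12 h mean was above 50% of the morning mean for 37 members and not for 42, and it ranged from 5.48% to 155%. It was above the whole morning mean for 5 members: AT3G28270, ATSPS4F, 247780_at, TBL26 and 253922_at. The lowest shares were those of 262113_at, 246523_at, at 12.7%, and AT1G55960, at 12.8%. Of these only 262113_at overlapped its 6 h arrays, and 246523_at was at 60.9 and 58.3 at 12 h and 30 and 36.8 at 6 h. For 37 members 12 h was the second lowest time, for 26 it was 4 h and for 12 it was 3 h. When a member had gone under 50% did not fix whether it was back: of the 35 that were under 50% by 3 h, 14 were above 50% at 12 h, against 9 of the 18 first under it at 4 h and 14 of the 26 under it only at 6 h.

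The first hour also differed among the members. AT5G54130, TBL26, AT5G42760 and AT2G19650 had a dip at 0.25 and 0.5 h followed by a high at 1 h: AT2G19650 was at 96 and 108 at 0.5 h and 302 and 297 at 1 h. AT4G28290 ran the other way, with 237 and 251 at 0.25 h, then 172 and 147 at 0.5 h and then 68.4 and 83.7 at 1 h, and with no overlap between these pairs. AT1G68440 had the same order, at 729 and 620.2, 472 and 452 and 236 and 245. Handling and hour of the day cannot be told apart in these courses, since every plant was handled.

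Near the threshold the members shade into other transcripts. Just inside it among named genes lay AT2G41040 with a fold of 3.16, ATSPS4F with 3.19 and AT4G26860 with 3.22, and just outside it lay XTH32, a wall xyloglucan enzyme, with 2.99, ARD4, an acireductone dioxygenase, with 2.98, and LHCB4.3, a photosystem II antenna protein, with 2.97. Over all probe sets the nearest on each side were 266892_at at 3.00 and 266391_at at 2.99. A further 780 probe sets were lowest at 6 h with a morning mean of at least 150 and a fold under 3.

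Across the 15091 probe sets that reached 40 on 2 or more of the 36 arrays, 17.1% were lower and 17.6% were higher in shoots at 6 h than in the morning by limma with a Benjamini-Hochberg adjusted p under 0.05. All 79 members were lower, which the selection fixed. Other genes of the families of 3 named members, gathered by symbol after the data were seen, went different ways. Of 6 SWEET genes tested beside the member SWEET2, SWEET1 was lower and SWEET4 was higher. Of 8 BGLU genes beside BGLU40, 5 were higher, among them BGLU44, and of 15 TBL genes beside TBL26, 2 were lower and 1 was higher.

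On 14 lists of 203 genes for the clock, light, hormones, stress and metabolism, the probe table named 27 probe sets, of which 26 were tested and 0 were members. Most listed genes could thus not be looked up, among the 48 unnamed members or elsewhere. In shoots at 6 h, 8 of the 26 were lower and 9 were higher. All 6 cold and drought genes that the probe table names, of 10 on that list, were higher. GI, the only named gene of 13 on the list of evening clock genes, was higher by 2.71 ± 0.10 (SE) on the log2(signal + 10) scale. Of the 32 genes of the light and flowering list the probe table names 2, and both were lower. HYH, a bZIP factor of light signalling, was at 17.5 at 6 h with a morning mean of 134, and AT1G69570, a DOF factor of flowering time, was at 30 with 94.3. Their morning means were under the minimum of 150.

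In roots the members were mostly lower than in shoots. The selection favours this, since it set a minimum of 150 for the shoot morning mean and none in roots. The share over all probe sets was not counted. The root morning mean ranged from 0.511 to 1723, and the shoot morning mean plus 10 was a median of 4.97 times the root one plus 10. In roots 52 of the 79 were measurable, and 26 were under 40 on all 18 root arrays. The root morning mean was above the shoot one for 8 members, among them GR1, at 576 in roots and 519 in shoots. Of the 31 named members 14 were under 40 on every root array, among them AT3G28270, AT3G21670 and ATSPS4F.

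Whether the afternoon low also occurred in roots was tested with limma on log2(signal + 10), as the root 6 h mean minus the root morning mean. With an adjusted p under 0.05, 14 of the 79 members were lower, 17.7%, against 1.63% of all probe sets tested. None was higher by this test, against 1.67% of all probe sets, and 1 was higher at an unadjusted p under 0.05. By sign alone 56 were lower and 23 higher. The median difference was -0.15 over the members and 0.01 over all probe sets on the log2 scale. Among the 52 members measurable in roots, 11 were lower, against 1.72% of all probe sets so measured. Over the 9 root times, 13 members had their lowest root mean at 6 h, 16.5%, against 9.35% of all probe sets.

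The call depends on the 2 root arrays of 6 h: without replicate 1, 6 members were lower, 5 of them among the 14, and without replicate 2, 6 were lower, all among the 14. In every alternative and every fit without 1 array, 4 members passed: AT5G15950, AT3G56290, 247232_at and 256049_at. The sum of the 5 photosynthesis markers was also lower on the 6 h root arrays, at 161 and 169.8, against 193 to 282 on the 8 morning root arrays. That is 0.723% and 0.761% of the shoot level at 6 h, against 0.866% to 1.27% in the morning, and 1 of the 5 markers, RCA, passed the same test, at -0.84 ± 0.11 (SE), adjusted p = 2.7e-05. For 13 of the 14 members the root signal lost by 6 h was more than 1.27% of the shoot morning mean, and for AT1G65490 it was 0.595%. The 1.27% is the highest level of the marker sum on a root array and not a loss, so the measures differ. The ratio of the 3′ to the 5′ GAPDH probe sets was 1.05 and 1.36 on the 6 h root arrays, against at most 1.12 on the 8 morning root arrays. The part of the markers' own difference and of this ratio in the result was not tested.

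**Figure D4:**
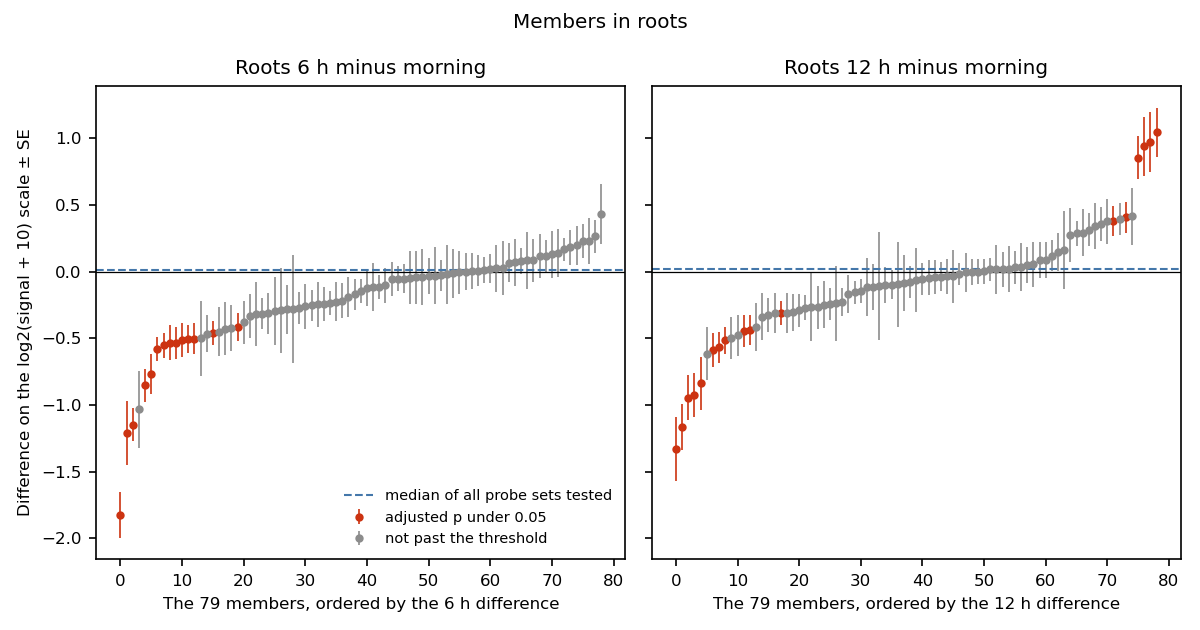
Differences of the 79 members in roots, 6 h minus morning (left) and 12 h minus morning (right), on the log2(signal + 10) scale, each panel ordered by its own values. Bars are standard errors, red points passed an adjusted p of 0.05, and the dashed line is the median of all probe sets tested. At 6 h the 14 red points are all below 0, and at 12 h 11 are below and 6 above.

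AT5G15950, the polyamine enzyme, had the largest difference in roots. Its root signals were 24.7 and 30.5 at 6 h and 47.2 to 300.5 (median 122) on the morning arrays, a difference of -1.82 ± 0.17 SE, adjusted p = 2.3e-07. Both 6 h arrays lay below all 8 morning arrays, and the adjusted p lay between 1.1e-07 and 0.00013 over the alternatives. Whether the courses of the organs are alike was not tested. In roots, as in shoots, AT5G15950 was lower at 0.25 h, at 70.2 and 47.2, than at 1 h, at 118 and 176. Its later root levels were 52.8 and 45.8 at 12 h and, the next morning, 300.5 and 208. The root loss by 6 h was 26.1% of the shoot morning mean.

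AT3G56290, of unknown function, was at 51.7 and 57.6 in roots at 6 h and 50.9 to 130.4 (median 89.4) in the morning, a difference of -0.58 ± 0.09 SE, adjusted p = 0.00035. The 6 h arrays overlapped those of 0.25 h, which were at 50.9 and 63, and lay below the other morning arrays. GR1 was at 414 and 413 in roots at 6 h and 496 to 693 (median 578) in the morning, a difference of -0.46 ± 0.09 SE, adjusted p = 0.0045, with both 6 h arrays below all morning ones. Its root level at 12 h, 575 and 570.3, was within the morning range. With 1 of the 6 h arrays left out, whichever it was, the adjusted p of GR1 was above the threshold, and over all alternatives it reached 0.089.

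AT4G34150, the C2-domain protein, was at 146 and 140.5 in roots at 6 h and 133 to 284 (median 212) in the morning, a difference of -0.50 ± 0.10 SE, adjusted p = 0.005. The 24 h arrays, at 133 and 180.0, overlapped those of 6 h, as in shoots the 24 h level was low. AT3G44630, the disease resistance protein, was at 25 and 30.6 in roots at 6 h and 27.9 to 64.9 (median 45.7) in the morning, a difference of -0.53 ± 0.12 SE, adjusted p = 0.011, with overlap with the 1 h arrays at 37.3 and 27.9. Both calls were lost with 1 of the 6 h arrays left out, whichever it was, and in a fit of the root arrays alone.

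AT1G64500 and AT1G65490 passed the root test at signals under 40 on every root array, so these calls rest on values near the background. The glutaredoxin AT1G64500 was at 3.49 and 5.27 in roots at 6 h and 6.62 to 17 (median 10.4) in the morning (-0.51 ± 0.13 SE, adjusted p = 0.022), and AT1G65490 was at 10.3 and 8.87 at 6 h and 11.9 to 24.2 (median 18.7) in the morning (-0.50 ± 0.12 SE, adjusted p = 0.016). Probe set 256049_at was another such member, at 3.08 and 8.2 at 6 h and 11.9 to 22.9 (median 19.2) in the morning (-0.85 ± 0.12 SE, adjusted p = 0.00014). All 3 had both 6 h arrays below all morning arrays.

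Of the unnamed members measurable in roots, 247232_at was the clearest, at 20.8 and 18 in roots at 6 h and 35.9 to 91.9 (median 51.8) in the morning, a difference of -1.15 ± 0.12 SE, adjusted p = 1.8e-06. Its root signals were 29 and 30.2 at 3 h and 24.8 and 23.9 at 4 h, so its 6 h pair was the lowest of the root course without overlap. Probe set 260429_at was at 35.8 and 61.2 at 6 h and 48.4 to 291 (median 128) in the morning (-1.21 ± 0.24 SE, adjusted p = 0.0042). Its 24 h root arrays, at 56.2 and 48.4, were as low as those of 6 h, and its high values were at 0.25 and 0.5 h, as in shoots. The other 4 unnamed members that passed, 252414_at, 253922_at, 263433_at and 262526_at, had differences between -0.77 and -0.41.

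Most members did not pass in roots. AT1G55960 was at 73.7 and 70.8 in roots at 6 h and 63.2 to 79.1 (median 71.8) in the morning, a difference of 0.02 ± 0.11 SE, adjusted p = 0.96. SWEET2 was at 53 and 71.9 at 6 h and 33.5 to 68.7 (median 55.5) in the morning (0.14 ± 0.18 SE, adjusted p = 0.8). AFR was at 47.2 and 41.5 at 6 h and 42 to 83.2 (median 55) in the morning (-0.27 ± 0.12 SE, adjusted p = 0.28). PPDK was at 39.2 and 40.9 at 6 h and 32.7 to 54.3 (median 49.9) in the morning (-0.19 ± 0.15 SE, adjusted p = 0.62), and its root level was highest at 3 h, at 71.3 and 71.8. Probe set 256245_at had a root difference of -1.03 ± 0.29 SE, adjusted p = 0.051, with 264 and 233 at 6 h below all morning arrays, which were at 343 to 1117 (median 441). A p above the threshold does not show that these root levels were the same.

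At 12 h the members in roots went both ways. By the same test, 11 of the 79 were lower, against 3.24% of all probe sets, and 6 were higher, against 3.41% of all probe sets. Of the 11 lower, 9 were among the 52 members measurable in roots, and so were all 6 higher. Of all probe sets so measured, 3.38% were lower and 3.66% were higher. Without replicate 1 of the 12 h roots 4 were lower and 1 was higher, and without replicate 2 the counts were 2 and 1. The photosynthesis markers summed to 151 and 168 on the 12 h root arrays, against 193 to 282 on the morning ones, and their part in the counts was not tested. Lower at both 6 and 12 h in roots were 6 members, among them AT5G15950 (-1.17 ± 0.17 SE, adjusted p = 0.00011 at 12 h) and AT4G34150 (-0.51 ± 0.10 SE, adjusted p = 0.0032). The share of all probe sets lower at both times was not counted, and both tests use the same root morning mean. AT2G04795 was at 69.8 and 40.9 in roots at 12 h and 87.3 to 131 (median 110.2) in the morning (-0.93 ± 0.16 SE, adjusted p = 0.001), and AT5G54130 at 86.3 and 87.3 at 12 h and 97.4 to 169 (median 109.9) in the morning (-0.44 ± 0.11 SE, adjusted p = 0.023). The 12 h root pairs of AT2G04795 and AT5G54130 lay below the morning range, and those of AT5G15950 and AT4G34150 overlapped its low end.

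The 6 members higher in roots at 12 h were AT5G12110 and the unnamed 264436_at, 252123_at, 250207_at, 245306_at and 264745_at. The elongation factor gene AT5G12110 was at 184 and 168 in roots at 12 h and 96.4 to 191 (median 125) in the morning, so its 12 h arrays lay inside the morning range (0.41 ± 0.12 SE, adjusted p = 0.039). Probe set 250207_at was at 2959.8 and 3258 in roots at 12 h, above all morning arrays at 1439.5 to 2014 (median 1743) (0.86 ± 0.16 SE, adjusted p = 0.0018), and at 814 and 777 in shoots at 12 h, inside its shoot morning range. Probe set 252123_at was at 713 and 788 in roots at 12 h and 253 to 558 (median 418) in the morning (0.94 ± 0.22 SE, adjusted p = 0.011).

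Over the whole root course, 36 of the 79 members changed by the moderated F-test of limma (Benjamini-Hochberg adjusted p under 0.05), 45.6%, against 17.6% of all probe sets. Among the 52 measurable in roots it was 30, against 18.8% of all probe sets so measured.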

How the data were processed

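The deposited values are signal intensities of 22810 probe sets on 36 Affymetrix ATH1 arrays, made by the authors with MAS5, per the submitters' processing notes, in a version not given in the sources used here. Before deposit the arrays had been scaled to a common trimmed mean, as the values show, so no further scaling was applied. The 64 control probe sets were left out of selection and tests.

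Gene names came from the platform's probe table, updated through the TAIR10.1 gene table, which was used for names only. Root contrasts were fitted to log2(signal + 10) with limma 3.58.1 in R 4.3.3, over all 36 arrays as 18 group means, on the 15091 probe sets that reached 40 on 2 or more arrays. All 79 members were kept by this filter, which looks at both organs. P-values were adjusted over all 15091 by the Benjamini-Hochberg method, 2-sided, with a threshold of 0.05. The morning in roots is the mean of the 0.25, 0.5, 1 and 24 h group means, as in shoots. Fold changes in log2 understate the change of low signals because of the added 10. The procedure was tested on simulated data.

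The members and the lists were chosen with earlier results of these data known. Named genes are the 24 named members with the largest fold, those with the largest root differences, those next to the threshold on both sides, and further members chosen after their values were seen. Together these cover all 31 named members.

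Replicate numbers were checked for pairing. After the group means were removed, root arrays of 2 times with the same number correlated at -0.223 to 0.473 over 36 pairs of times. Of these 7 were above 0.1, and 6 of the 7 were the pairs among 0, 0.25, 0.5 and 6 h, at 0.195 to 0.473. Since not every pair passed 0.1, the numbers were not used. Pairing was not checked among the shoot arrays, whose members were not tested. Alternatives were other pseudocounts, filters and normalizations, a fit of the root arrays alone, a trend and robust prior, a replicate block, other settings of the selection, and each array left out in turn. Sequences of promoters and proteins were not used here.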

Additional observations from a re-analysis of the deposited data

Results flagged for a closer look

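In 3 members, all unnamed, the 12 h arrays lay on opposite sides of the morning in the 2 organs: both root arrays were above all 8 morning root arrays while both shoot arrays were below all 8 morning shoot arrays. The difference between the organs was not tested, and the share over all probe sets was not counted. The selection, which asked for a high shoot morning mean, favours the shoot part of this. Probe set 264436_at was at 121 and 86.8 in roots at 12 h and 26.4 to 83.2 (median 44.2) in the morning, a difference of 1.05 ± 0.18 SE, adjusted p = 0.001, by limma on the log2(signal + 10) scale. In shoots it was at 71.7 and 73.3 at 12 h and 355 to 629.8 (median 400.1) in the morning. Probe set 245306_at was at 222 and 207 in roots at 12 h and 55.2 to 183 (median 108) in the morning (0.97 ± 0.22 SE, adjusted p = 0.01), and in shoots at 37.5 and 38.4 at 12 h and 69.4 to 324 (median 157) in the morning. Probe set 258023_at was at 459 and 493 in roots at 12 h and 339 to 421 (median 403) in the morning, and its difference of 0.29 ± 0.10 SE, adjusted p = 0.077, did not pass. In shoots it was at 277 and 299.9 at 12 h and 478 to 653 (median 554) in the morning. When 1 of the 12 h root arrays was left out, the adjusted p reached 0.11 for 264436_at and 0.18 for 245306_at.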

How the results depend on the processing

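The selection itself depends on its settings. With an added constant of 50 it gave 42 members, with a minimum morning mean of 300 it gave 41, with a fold of at least 4 it gave 43 and with a fold of at least 2 it gave 202, and leaving out arrays gave 78 to 97. In roots, the count of members lower at 6 h was 14 and lay between 6 and 15 when 1 array was left out, with 6 when a 6 h root array was the one left out. Over all probe sets the 6 h test called 498, and 182 to 572 without 1 array. At 12 h the 11 members lower and 6 higher became 2 to 13 and 1 to 7, and the 1003 probe sets became 211 to 1148, with the lowest counts when a 12 h root array was the one left out. Such a fit has 1 array in place of 2 for that time, which is assumed to vary like the other groups. No pseudocount, filter, normalization, prior or fit of the root arrays alone moved a root count by over 1.5 times, and no result reversed. The replicate block gave 515 probe sets at 6 h with 14 members lower, 1084 at 12 h and 38 members with any change in roots. All 14 calls at 6 h were kept with it. Of the single root calls of members, 258 repeats under other settings kept the call and 21 lost it, and with 1 array left out 245 kept it and 65 lost it. The 26 members with signals under 40 on every root array limit what the root arrays can show.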
